A study of Bactrocera oleae with 8 samples.

Results

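Larvae of the olive fruit fly *Bactrocera oleae* that had fed on green olives were compared directly with larvae reared on artificial diet on 4 Agilent arrays, out of the 8 arrays of the series. These are the arrays titled as green olive against artificial diet, and every probe that was not a control was used, which gave 20516 contigs. The Cy5 channel of each array held RNA of green olive larvae and the Cy3 channel RNA of diet larvae, each channel from 20 pooled 2nd-instar larvae. Green olive larvae were cut out of infested fruit from an orchard in Heraklion, Greece, in September, whereas the diet larvae hatched in the laboratory from eggs laid in wax by flies that had emerged from fruit of the same orchard, and grew on a mixture of yeast, soy hydrolysate, sugar, cellulose and olive oil. The diet also held Nipagin, potassium sorbate, Tween and hydrochloric acid. Green olives were in Cy5 on all 4 arrays, so feeding regime, rearing place and dye cannot be told apart. The remaining 4 arrays of the series set green against black olive larvae, and the methods describe the same 4 green olive replicates for both sets.

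Olive fruit fly larvae feed inside the fruit, where the unripe flesh holds phenolic compounds such as oleuropein that bind proteins. Insect larvae break down dietary protein in the midgut with trypsin- and chymotrypsin-like serine proteases, and starch sugars with maltases. Cytochrome P450 monooxygenases, glutathione S-transferases and UDP-glycosyltransferases modify foreign compounds so that they can be excreted, and prophenoloxidases make the melanin of wound and immune responses. A contig is an assembled transcript sequence, and its description is the one given in the study's annotation. That annotation covers contigs that the study had called and those on its control list. A log2 fold change is the mean over the arrays of log2 of green olive over artificial diet signal, so that a positive value is higher in green olives.

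The study designed RT-qPCR primers for 16 contigs, 10 of which were called higher in green olives here, 6 not called and 0 called lower. Over all contigs, 0.77% were called higher. Most of the 16 were selected by the study as over-expressed in one of its comparisons, so these counts are not independent evidence of a direction. Contig01966 and contig05987, not called at -0.12 and 0.10, are on its control list. The pairs for 4 of them are shown because they mark the transcripts of the digestion and detoxification results, 5′ to 3′, forward then reverse.
contig04596, trypsin-like serine protease, forward: cggctctgaaatcagggata
contig04596, reverse: ttcatcggcaacatcactgt
contig04849, trypsin delta/gamma, forward: atccttaccaatggcagcag
contig04849, reverse: cggttggggtacactctcat
contig04001, glycosyltransferase-like, forward: acaaacgcttcgccatttac
contig04001, reverse: tagctgcattttgctgatgg
contig03604, cytochrome P450, forward: gctttctgcggcacattgaa
contig03604, reverse: aatgcgtgacagtgctcaga

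Larvae from green olives and from artificial diet differed at 216 contigs, 1.05% of the 20516 tested, called where limma's Benjamini-Hochberg adjusted p-value lay below 0.05 and the log2 fold change exceeded 1 in size. Of these, 158 (0.77% of all contigs) were over-expressed and 58 (0.283%) under-expressed in green olives. Over-expressed contigs made up 73.2% of the calls, and 55.8% of the 613 calls made from the log ratios of the deposited value table. Leaving out replicate 4 left 129 calls. Among the calls, 39 contigs lay above a log2 fold change of 2 and 10 below -2, while 8 lay above 3 and 6 below -3. The extremes were 6.06 and -5.98. The median was 1.51 among the over-expressed and -1.30 among the under-expressed contigs. Levels are normalized log2 intensities of a channel. The green olive levels did not overlap the 4 diet levels for 172 of the 216 called contigs, 117 over-expressed and 55 under-expressed, while 17.7% of all contigs showed no overlap. Of the 205 called contigs with several probes, all had every probe changed in the same direction. A contig's value is the mean of its probes, so this agreement is not independent of the call. The contigs next to the fold change threshold were contig05359 at -1.002, rc_contig12381 at 1.002 and rc_contig09350 at 1.004 inside it, and contig04196 at 0.991, rc_contig03152 at -0.996 and contig07574 at -0.999 outside it.

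**Figure D1:**
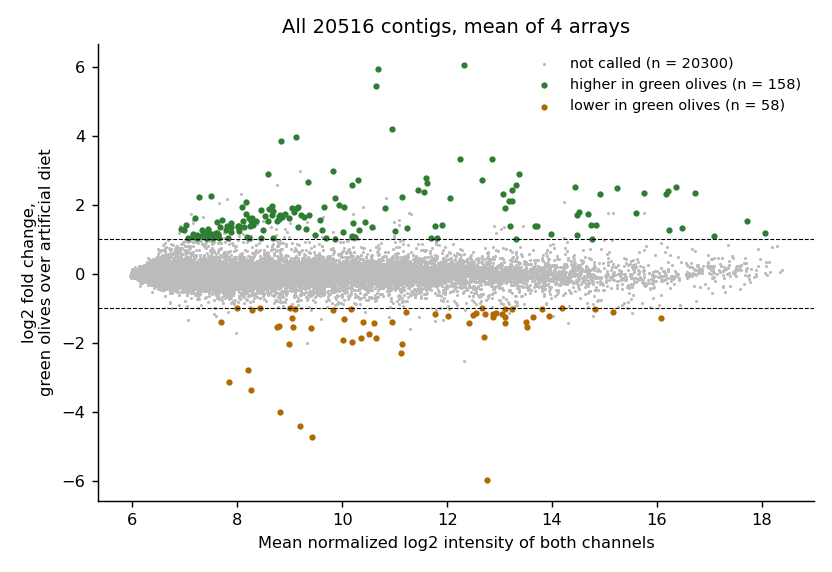
Mean normalized log2 intensity of both channels (x axis) against the log2 fold change of green olives over artificial diet (y axis) for 20516 contigs, each point the mean of 4 arrays, with dashed lines at the threshold of 1. The 158 over-expressed contigs reach a log2 fold change of 6.06 and the 58 under-expressed contigs reach -5.98.

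The share of spots well above background on these 4 arrays was 60.6 to 64.1% for green olives and 65.5 to 66.9% for diet. The 116 probes printed at least 10 times gave a median SD between copies of 0.105 on replicate 1, against 0.0388 to 0.0477 on replicates 2 to 4. Replicate 1 also lay in row 1 of the slide and the other replicates in row 2. For the 158 over-expressed contigs, replicate 1 had the smallest ratio of the 4 arrays in 66 cases and replicate 4 the largest in 72. With slide row as a term in the model 154 contigs were called, of which 145 were among the 216. Of the 30 contigs with general cell functions on the study's control list, 0 were called. They ranged from -1.44 to 2.09 (median 0.04), with the extremes at an alcohol dehydrogenase and a heat shock contig that are also on lists below, and the 24 on no other list ranged from -0.39 to 0.56. The median over all contigs was 0.01. Among the 13 mitochondrial protein-coding genes 0 were called, and their log2 fold changes ranged from -0.14 to 0.46.

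The 10 largest rises in green olives ran from 2.90 to 6.06 on the log2 scale, and most of these contigs had no description. Contig04633, described as a leucine rich protein, stood at 14.78, 15.28, 15.71 and 15.67 in the green olive channels of replicates 1 to 4, and at 8.62, 9.65, 9.43 and 9.49 in the diet channels. Its groups lay far apart, with a log2 fold change of 6.06 ± 0.291 (SD, n = 4) or 66.7-fold (limma adjusted p = 1.68e-06). The reverse-strand probes of contig07171, whose forward probes are described by homology to a protein named pG1, read 13.01 to 13.90 in green olives and 7.39 to 7.93 in diet. Their ratio was 61.7-fold higher, a log2 fold change of 5.95 ± 0.23 (SD, n = 4; limma adjusted p = 1.99e-06). Contig12892, without a description, was at 12.92, 13.55, 13.49 and 13.47 against 7.82, 8.13, 7.92 and 7.84, a 43.1-fold difference. In each of these, replicate 1 held the lowest green olive level.

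Contig09925 is the only member of this list described as ribosomal RNA, and it was bright in both groups, at 18.57 to 18.72 in green olives and 17.27 to 17.70 in diet, a log2 fold change of 1.17 ± 0.269 (SD, n = 4; limma adjusted p = 0.000381). It was listed together with both strands of contig04633, contig07171, contig03638 and contig12892, which made 9 entries. All 9 were over-expressed, from 1.17 to 6.06, with a median of 3.33, and the list was drawn up with their calls known. Rc_contig03638 rose from 6.64, 7.22, 6.89 and 6.89 in diet to 10.14, 10.98, 10.99 and 10.92, or 14.4-fold (limma adjusted p = 6.49e-06), while the forward probes of the same contig rose 1.43 on the log2 scale. The remaining entries among the 10 highest were a reverse-strand segment of contig00541 at 4.19, rc_contig04969 at 3.98, a forward segment of contig00541 at 3.33 and contig04078 at 2.98, none with a description. Rc_contig04969 was the most even of these, at 4.15, 3.91, 3.88 and 3.97 on the 4 arrays. Contig04078 was uneven, at 1.84, 2.31, 3.97 and 3.81, and it lost its call without any one of the 4 replicates.

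The deepest under-expression in green olives was that of a virus-like contig. Contig00002 is described as a nonstructural polyprotein, the replication protein of small RNA viruses of insects, and its best annotated match is from cricket paralysis virus. Its reverse-strand probes, rc_contig00002, read 16.83, 18.22, 15.17 and 12.83 in the diet channels and 10.62, 11.78, 9.11 and 7.60 in the green olive channels. The order of the replicates was the same in both channels, and the log2 fold change was -5.98 ± 0.528 (SD, n = 4; limma adjusted p = 1.99e-06), or 63.3-fold lower. The forward probes stood at 9.02, 8.93, 9.87 and 9.80 in diet and were well above background in 0 of the 4 green olive channels. Their level was at least 8.33-fold lower in green olives (limma adjusted p = 6.14e-05), a bound that takes the dim channel at no less than the lowest signal well above background on its array.

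Other virus-like contigs went the opposite way. Contig04635, described as a nucleocapsid protein with its best match in a fish rhabdovirus, was at 13.27, 13.45, 12.62 and 13.27 in green olives and 10.64 to 11.57 in diet, a log2 fold change of 2.20 ± 0.577 (SD, n = 4; limma adjusted p = 0.00492). Contig05647, described as an outer coat protein and matched to the glycoprotein of a Drosophila sigma virus, rose by 1.75 with its forward probes and 2.58 with its reverse probes. All 3 of these entries were higher in green olives on every array, with no overlap between groups, and rc_contig05647 lost its call without replicate 1. Of the 5 virus-like entries, 3 were thus higher and 2 lower, and all 5 were listed because the study had called them.

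After rc_contig00002, the next falls had no description. Contig01400 was at 12.41, 10.99, 11.86 and 11.87 in diet and at 9.10, 6.17, 6.43 and 6.52 in green olives, where only replicate 1 was well above background. Its log2 fold change was -4.73 ± 0.977 (SD, n = 4; limma adjusted p = 0.00898), a size that rests on 3 dim channels and lay between -6.70 and -4.19 over the alternatives. Rc_contig00932 (log2 fold change -4.42 ± 1.48, SD, n = 4) and rc_contig05454 (-4.00 ± 0.905) had 1 of 4 green olive channels above background as well, their smallest fall was on replicate 1, and over the alternatives they lay between -6.57 and -3.66 and between -6.19 and -3.47. Rc_contig00932 lost its call without replicate 2, 3 or 4. Rc_contig03245 was above background in 2 green olive channels and gave -3.05, -3.22, -3.69 and -3.48 on the 4 arrays. Further falls were contig01720 at -2.78, whose diet levels spread from 7.32 to 12.21, contig07983, described as a CG5765 protein, at -2.31, contig04378, a histone H3-like sequence, at -2.05, and contig12861 at -2.04. Contig01720, contig07983, contig04378 and contig12861 each lost their call when any of at least 3 of the 4 replicates was left out.

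**Figure D2:**
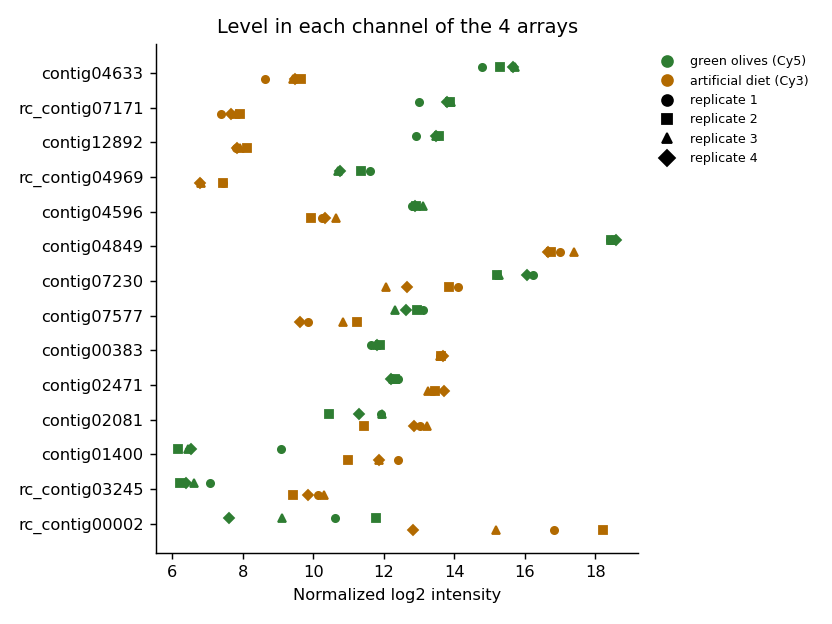
Normalized log2 intensity (x axis) of 14 contigs in the green olive channel (green) and the diet channel (brown) of the 4 arrays, with a marker shape for each replicate. Contig04633 lies between 14.78 and 15.71 in green olives and between 8.62 and 9.65 in diet, and the order is turned round for rc_contig00002.

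Of 21 protease contigs listed as digestive, 9 (42.9%) were over-expressed in green olives, beside 0.77% of all contigs, and 0 were under-expressed. The median log2 fold change was 0.91 over the list beside 0.01 over all contigs, and 20 of 21 values were positive. The 9 include contig01887, similar to a cytosolic peptidase. Also among the 21 are the sperm-leucylaminopeptidases contig04956 and contig00850, which are testis markers below. This list and the gene lists that follow, apart from the boCYP sequences, were put together mainly from contigs that the study had called in one of its comparisons. Their counts are therefore not independent evidence of a direction. The shares to set beside each count are those over all contigs, 0.77% over-expressed and 0.283% under-expressed. A few members, such as contig00907, contig02423 and contig03652, are on the study's control list instead. In whole larvae, a larger midgut and more RNA per midgut cell cannot be told apart. Contig04596, a trypsin-like serine protease precursor, read 12.81, 12.91, 13.11 and 12.89 in green olives and 10.26, 9.94, 10.63 and 10.34 in diet. It was 6.22-fold higher, with log2 ratios of 2.55, 2.96, 2.48 and 2.55. Contig03768, described as Jonah 65Aiii after a Drosophila midgut protease family, followed at 1.84, 1.84, 1.11 and 2.17 on the 4 arrays, or 3.35-fold (limma adjusted p = 0.00273). Contig04849, trypsin delta/gamma, was at 18.42 to 18.59 in green olives and 16.64 to 17.39 in diet, 2.90-fold higher (limma adjusted p = 0.000742).

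Of the contigs described as midgut-specific serine proteases, contig02711 gave 1.29, 1.56, 1.46 and 1.28 and was over-expressed, while contig04367 gave -0.05, 0.53, -0.06 and 0.29 and was not called. The difference between these contigs was not tested. Smaller rises were those of contig04099 (serine protease 6, log2 fold change 1.26), contig05378 (midgut trypsin, 1.03, not called without replicate 2 or 4) and contig01887 (similar to tripeptidyl-peptidase 2, a cytosolic peptidase, 1.02). The last of these ranged from 0.28 on replicate 1 to 1.67 on replicate 4, with overlapping groups, and lost its call without replicate 2, 3 or 4. Chymotrypsin-like contigs (contig04313 at 0.43 and contig06115 at 0.27) and Jonah 65Aiv contigs (contig06773 at 0.30 and contig07006 at 0.34) were not called. Contig00850, a sperm-leucylaminopeptidase, was at 1.02 and not called (limma adjusted p = 0.0604). The lowest protease, contig06068 of the M13 family, was at -0.42. Among 10 other digestive enzymes 2 were called, both higher, and the median was 0.23. These were the maltase contig02414, at 1.07, 1.36, 0.89 and 1.31, and contig02547, matched to a secreted phospholipase A2, at 1.25, 1.03, 0.97 and 0.97 (limma adjusted p = 3.3e-05), whose mean fell to 0.99 without replicate 1. Both lysozyme contigs had negative values, contig08507 at -0.57 and contig06851 at -0.14, neither called.

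Of 7 described P450 contigs, 3 (42.9%) were under-expressed and 1 (14.3%) over-expressed in green olives, beside 0.283% and 0.77% of all contigs. The median was -1.25. Contig00383, described as P450 6D8, was even between arrays, with green olive levels of 11.64, 11.89, 11.80 and 11.80 and diet levels of 13.60, 13.63, 13.58 and 13.68. It was 3.58-fold lower, a log2 fold change of -1.84 ± 0.101 (SD, n = 4; limma adjusted p = 3.3e-05). Contig04361 fell by 1.25 on the log2 scale, with ratios of -1.12, -1.33, -1.33 and -1.23. Contig06535, named for Cyp6g1, a gene tied to insecticide resistance in Drosophila, was uneven at -0.82, -2.02, -1.77 and -1.03 and lost its call without any one replicate. Contig03604, described as P450 28A1, was the only one over-expressed, at 1.34, 1.87, 2.28 and 0.70, and all 4 of its green olive levels (7.49 to 9.17) exceeded all 4 diet levels (6.68 to 7.29). Its call was lost without replicate 1, 2 or 3.

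A separate set of 15 P450 sequences on the array, named boCYP, came from PCR with degenerate primers and was not picked by expression. Of these, 2 (13.3%) were under-expressed, beside 0.283% of all contigs, and 0 over-expressed, beside 0.77%. The median was -0.29 over the 15, beside 0.01 over all contigs. BoCYP6A9-5 was at 12.35, 12.59, 12.23 and 12.40 in green olives and 13.49, 13.99, 13.88 and 13.95 in diet, a log2 fold change of -1.44 ± 0.225 (SD, n = 4; limma adjusted p = 0.000289). BoCYP6A14-7 was at -1.25, -1.36, -1.30 and -1.13 on the 4 arrays (limma adjusted p = 3.3e-05). BoCYP6A38V1-9 and boCYP12B2-14 had values of -0.94 and -0.78, with adjusted p-values under the threshold but a fold change inside it. The other members of the CYP6 family gave -0.29 (boCYP6P9-10), 0.01 (boCYP6A28-8) and 0.26 (boCYP6A13-6), none of them called. BoCYP4G1-1 (-0.22), boCYP9F2-12 (-0.60), boCYP18A1-15 (-0.42), boCYP4D10-3 (0.31) and boCYP4AC1-4 (0.14) were not called either. BoCYP4G1-2, at 0.26, was above background in 0 diet channels and boCYP9B2-11, at -0.40, in 0 green olive channels. BoCYP12A3-13, above background in only 2 green olive channels and 1 diet channel, was uneven at 1.90, -0.38, -0.13 and 0.93, with a mean of 0.58.

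Other contigs listed with detoxification changed in both directions. The rises below are of contigs that the study counts as putative detoxification genes. By annotation, contig03020 is a hypothetical conserved protein, and contig03118 is also on the amino acid list below. Of 16 contigs, 3 were over-expressed and 2 under-expressed, and the median was 0.33. Contig04001, similar to an N-acetylglucosaminyltransferase, was at 9.42, 9.09, 9.31 and 9.66 in green olives and 7.60, 7.26, 7.64 and 7.57 in diet, 3.61-fold higher (limma adjusted p = 0.000198). Contig03020, named as an N-acetyltransferase by the study, was at 1.38 and contig03118, a glycine N-methyltransferase that uses S-adenosylmethionine, at 1.004, the latter not called without replicate 3. The fallen contigs were a UDP-glycosyltransferase 37C1, contig02020, at -1.49, -0.85, -1.30 and -1.05, and a glutathione S-transferase, contig03074, at -0.82, -1.37, -1.27 and -1.11. For both of these no green olive level reached a diet level.

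A list of 7 melanization and copper proteins held 3 falls and 1 rise, with a median of -0.95. The falls were those of both prophenoloxidases and a copper transporter, and the rise that of a copper chaperone. The prophenoloxidases contig02081 and contig01992 fell by 1.24 and 1.41 on the log2 scale. Their levels moved together with the replicate in both groups. Contig02081 read 10.45 in green olives and 11.44 in diet on replicate 2, and between 11.29 and 13.22 in all other channels, so that its groups overlapped. Contig01992 gave -1.45, -0.62, -1.36 and -2.20, also with overlapping groups, and both contigs lost their calls without any one of the 4 replicates. The copper transporter 1B, contig06412, fell on every array, at -1.03, -1.45, -1.90 and -1.35 (limma adjusted p = 0.00273). Copper is the cofactor of phenoloxidases and of superoxide dismutase. The copper chaperone for superoxide dismutase, contig03721, rose at 1.12, 1.20, 0.86 and 0.95 and was not called without replicate 2. The yellow precursors, proteins of the pigment pathway, were at 0.36 (contig12373) and 0.45 (contig01210), not called.

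**Figure D3:**
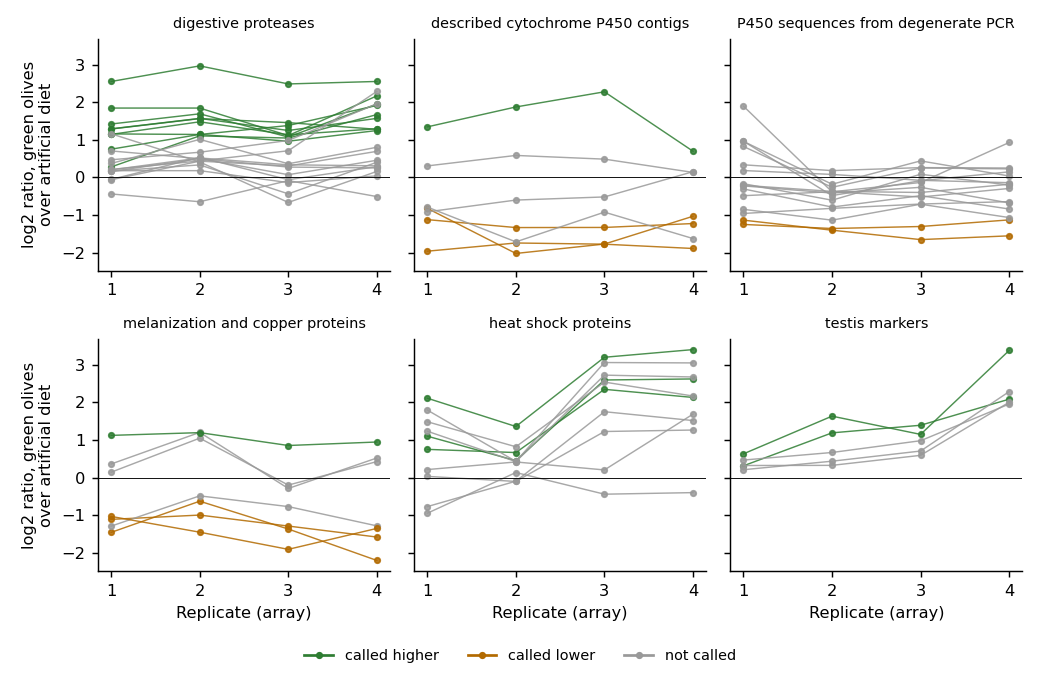
Log2 ratio of green olives over artificial diet (y axis) on each of the 4 arrays (x axis, replicates without order) for 6 gene lists, where a line joins the values of one contig and its color gives the call. Proteases lie mostly above 0 on every array, 3 of the 4 called contigs described as P450 and both called boCYP sequences lie below 0, and heat shock and testis contigs spread widely between arrays.

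The contigs of 2 enzymes of serine synthesis were over-expressed in green olives. Phosphoserine phosphatase, contig00698, which makes serine in the last step of the pathway, read 12.14, 12.66, 12.47 and 12.63 in green olives and 10.64, 11.15, 11.20 and 11.32 in diet. Its log2 fold change was 1.40 ± 0.124 (SD, n = 4; limma adjusted p = 7.72e-06). Phosphoserine aminotransferase, contig01395, which acts just before it, was at 1.28, 0.64, 1.37 and 0.88 (limma adjusted p = 0.00708) and lost its call without replicate 1 or 3. Urate oxidase, contig02471, which breaks down uric acid, fell at -0.99, -1.16, -0.98 and -1.51 (limma adjusted p = 0.000379). Contig04337, matched to a purine nucleoside phosphorylase of tsetse fly, rose with a wide spread, at 0.88, 0.64, 2.32 and 3.05, and lost its call without replicate 3 or 4. In all, 4 of 13 amino acid and purine enzymes rose and 1 fell, with a median of 0.48, where contig03118 is counted again. Glutamine synthetase, contig02665, and S-adenosylmethionine synthetase, contig00095, were at 0.48 and 0.71, not called.

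Of 6 alcohol and short-chain dehydrogenases, which oxidize alcohols and related compounds, 2 were under-expressed and 0 over-expressed, with a median of -0.86. Contig02815, named for an antennal short-chain dehydrogenase, was the most even contig among the falls named here, at -1.24, -1.18, -1.15 and -1.27. Contig02029, matched to an alcohol dehydrogenase, fell at -1.38, -1.11, -1.08 and -0.91. Alcohol dehydrogenase 2, contig03652, had a lower value, -1.44, but ranged from -0.62 to -2.49 and was not called. Another alcohol dehydrogenase, contig06994, had the highest value of the list, 1.10, with replicate 4 above the others at 2.57, and was not called either. Among 7 carriers of small hydrophobic molecules 2 rose and 1 fell. Odorant binding protein 8a, contig07577, was at 13.12, 12.94, 12.32 and 12.63 in green olives and 9.84, 11.24, 10.83 and 9.61 in diet, 5.18-fold higher (limma adjusted p = 0.0143). It lost its call without replicate 1 or 4. A circadian clock-controlled protein, contig04487, rose 2.88-fold, and contig01890, a takeout-like protein of the same family of hormone-binding carriers, fell 2.83-fold (limma adjusted p = 0.00316 and 0.0134), the latter not called without replicate 1, 3 or 4. None of the 5 myo-inositol oxygenases, which degrade inositol, was called, and their values ran from -0.47 to 0.05.

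Heat shock proteins are chaperones that bind unfolded proteins in stressed cells. Of 10 heat shock contigs, 3 (30%) were over-expressed in green olives, beside 0.77% of all contigs, and 0 under-expressed. The median was 1.59, with list medians of 0.93, 0.43, 2.45 and 2.15 on replicates 1 to 4. Contig07230, described as the small chaperone Hsp23, was at 16.22, 15.21, 15.27 and 16.07 in green olives and 14.11, 13.85, 12.07 and 12.67 in diet. Its log2 ratios were 2.11, 1.36, 3.20 and 3.40 (limma adjusted p = 0.034). The other contigs called in this group, contig06606 and contig05157, were at 1.10, 0.45, 2.60 and 2.62 and at 0.75, 0.67, 2.35 and 2.13. In all 3, the diet channels of replicates 3 and 4 were lower than those of replicates 1 and 2, while green olive levels were closer together. All 3 calls were lost without replicate 3 and without replicate 4, that of contig06606 also without replicate 1 and that of contig07230 without any one replicate. Contig04923, also described as Hsp23, had a log2 fold change of 2.09 but missed the threshold (limma adjusted p = 0.0809). Hsp83 (contig00907), a chaperone of another class, was at -0.41.

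Peritrophin-95, contig01674, a protein of the chitin-bound membrane that lines the insect midgut, was the one contig called among 8 peritrophins and cuticle proteins. Green olive levels were 15.51, 15.37, 15.46 and 15.31 and diet levels 13.94, 11.93, 15.27 and 13.38, so that nearly all of its spread came from diet. The log2 fold change was 1.78 ± 1.34 (SD, n = 4; limma adjusted p = 0.0384), and the call was lost without replicate 1, 2 or 4. It was also lost in a fit of only the 4 arrays against diet, and without replicate 1, 3 or 4 against black olives. Peritrophin-55, contig05646, and a type C peritrophin, contig06046, were at 0.66 and 0.68. The 3 cuticular protein 65Au contigs lay between -0.09 and -0.02, with replicate 1 at 0.62 to 0.79 and replicate 2 at -0.85 to -0.77.

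Pools of whole larvae can differ in the share of each tissue, and marker contigs of 4 tissues were followed. Of the midgut markers 3 of 4 were over-expressed (median 1.21). All 4 are also on the protease list above, so they cannot show midgut share apart from protease expression. Testis markers were over-expressed at 2 of 5, with a median of 1.02. Their list medians were 0.32, 0.67, 0.98 and 2.09 on replicates 1 to 4. Contig08903, matched to the Drosophila protein Tes154, and contig04069, which carries the same description, stood at 6.94 and 6.74 in the diet channel of replicate 4, below all their other diet levels of 7.35 to 8.83. Both lost their calls without replicate 2, 3 or 4, and contig08903 also without replicate 1. Contig04956 and contig00850, sperm-leucylaminopeptidases counted above among the proteases, shared this layout, at 2.29 and 1.96 on replicate 4 and 0.21 to 0.98 on the others. Of the muscle markers 1 of 4 was under-expressed, the myosin heavy chain contig04073 at -1.51, -0.78, -2.08 and -1.22, while tropomyosin (contig02423) was at 0.15. Of the photoreceptor markers 1 of 4 was under-expressed, rhodopsin 3 (contig03383) at -1.04, which lost its call without replicate 2 or 3, and the remaining 3 were between 0.37 and 0.52. The part of tissue share in the results above was not tested.

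Of 9 transposon-like entries, 6 (66.7%) were over-expressed in green olives, beside 0.77% of all contigs, and 0 under-expressed, with a median of 1.26. The called entries include both strands of contig02335 and of contig09291, so each of these contigs is counted again. Mean diet levels of these strands were 6.31 to 6.39, close to background. Contig02335, described as a transposase, the enzyme that moves a DNA transposon, was near background in diet. Its reverse probes read 8.60, 8.84, 8.59 and 8.48 in green olives, were well above background in 0 diet channels, and were at least 4.57-fold higher (limma adjusted p = 3.3e-05). Contig09291, another transposase, was at least 2.48-fold higher with its forward probes and 3.03-fold higher with its reverse probes, at 1.47 to 1.96. A piggyBac transposase, contig03145, was at 1.63, 1.32, 0.82 and 1.66, and a Tc3 transposase, contig07038, at 0.53, 1.77, 0.91 and 1.14, the latter not called without replicate 2 or 4. A gag-pol retroelement, contig06956, had the lowest value, -0.83, not called.

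Probes for both strands were present for 6664 contigs. Among them, 25 contigs were called with both strands, 22 higher and 3 lower, 40 only with forward probes and 34 only with reverse probes, while 0 were called in opposite directions. The 3 contigs lower on both strands were contig00002, contig06353 (-1.92 forward, -1.39 reverse) and contig04747 (-1.87 and -1.57). Contig04633 was at 6.06 with forward and 2.90 with reverse probes, both called, while contig09925, described as ribosomal RNA, was called with forward probes only and stood at 0.41 with reverse probes. In contrast, contig01400 fell by 4.73 with forward probes and had -0.83 with reverse probes. A call on one strand and not on the other was not tested as a difference. Of the 216 called entries, 150 were forward contigs, 59 reverse contigs and 7 segments or other names.

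**Figure D4:**
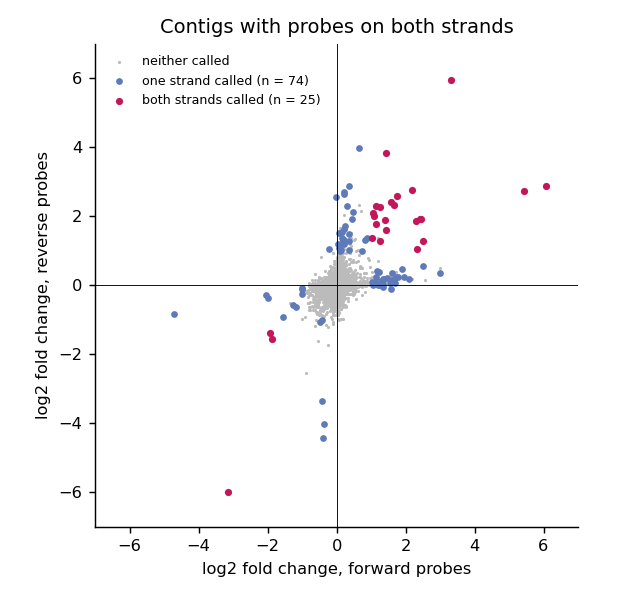
Log2 fold change of green olives over artificial diet with forward probes (x axis) against reverse probes (y axis) for 6664 contigs that have both, each point the mean of 4 arrays. The 25 contigs called on both strands, 22 higher and 3 lower, lie in the quadrants of equal sign.

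The 5 contigs with the largest spread between replicates were not called. Of 12609 contigs well above background in all 8 channels, the median SD of the log2 ratio was 0.162 and 245 contigs had an SD above 1, of which 15 were called. Replicates 1 and 2 were at opposite ends of the range in 111 of the 245. Contig05881, without a description, read 13.95, 7.85, 12.89 and 12.55 in green olives and 9.94, 12.95, 11.90 and 10.55 in diet. Its ratios were 4.00, -5.10, 0.98 and 2.00, with a mean of 0.47 (limma adjusted p = 0.888). Contig07544 gave 3.90, -5.26, 0.87 and 1.18 and rc_contig14193 gave -4.77, 4.36, 0.75 and 2.38. Contig03447 was at 11.77, 6.82, 7.02 and 11.90 in green olives, high on replicates 1 and 4 and low on replicates 2 and 3, and at 7.79, 9.44, 7.51 and 7.59 in diet. The other member of the 5 most uneven contigs was an entry added from GenBank, at 3.94, -5.49, 0.79 and 1.03.

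**Figure D5:**
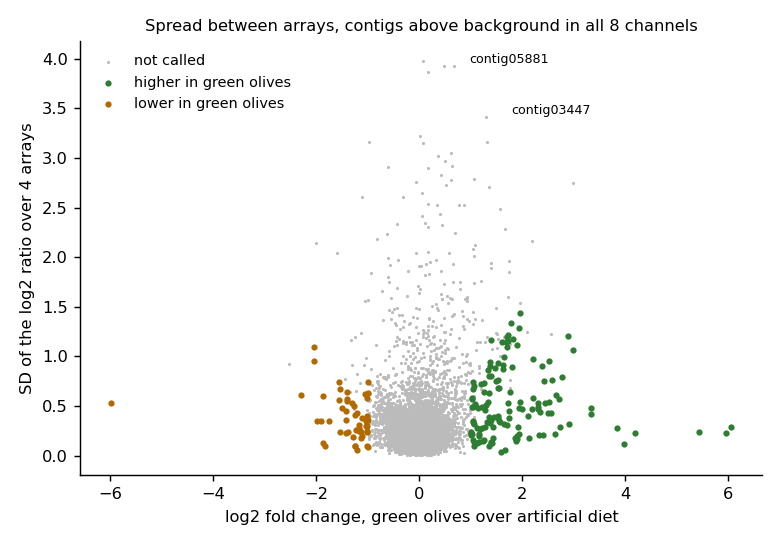
Log2 fold change (x axis) against the SD of the log2 ratio over the 4 arrays (y axis) for the 12609 contigs well above background in all 8 channels. Contig05881 and contig03447, at SDs of 3.92 and 3.41, are labelled and were not called, while contig04633 and rc_contig00002, at the ends of the x axis, have SDs of 0.291 and 0.528.

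Values against black olives, from the 4 arrays that share the green olive replicates, are given side by side for examples of several of the lists above, chosen with their values known. The difference between both log2 fold changes was tested in the same model, and 4.52% of all contigs had an adjusted p-value below 0.05 for it. That model has no term for the shared green olive replicates, so these p-values take no account of them. Contig04596 was 2.64 higher in green olives against diet and 0.56 higher against black olives (limma adjusted p of the difference = 0.000237). Contig04633 was 6.06 and 2.09 higher (limma adjusted p of the difference = 0.000233). Contig04849, trypsin delta/gamma, was 1.53 and 1.58 higher (limma adjusted p of the difference = 0.913). The 2 called boCYP sequences fell by 1.44 and 1.26 against diet, with 0.17 (boCYP6A9-5) and -0.18 (boCYP6A14-7) against black olives (limma adjusted p of the difference = 0.0019 and 0.00139). Rc_contig00002 was at -5.98 against diet and 0.06 against black olives (limma adjusted p of the difference = 0.000135). Myo-inositol oxygenase contig08383 was at -0.04 against diet and 3.01 against black olives (limma adjusted p of the difference = 0.00126). Contig07230, a heat shock protein, was at 2.52 and 3.27 (limma adjusted p of the difference = 0.642).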

How the data were processed

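The deposited scanner files of Feature Extraction 10.7.3.1 (10.5 in the submitters' processing notes) hold median intensities of spot and local background without normalization by the authors, processed intensities, and a log10 ratio. The deposited value table holds log10 ratios of the same spots, used as an alternative only. Median intensities were processed in R 4.3.3 with limma 3.58.1 (files read with the data.table package, version 1.17.8) after the study's methods: normexp with an offset of 50, loess within arrays, Aquantile between arrays, then one linear model on all 8 arrays with a coefficient per set of 4 and empirical Bayes statistics. The 1319 control spots were left out after background correction, outlier spots (59 to 128 on these arrays) had no weight, and spots were averaged by probe and probes by contig. Fits on the 4 arrays lacked a value on some array for 2 contigs, 0 of them called. A contig was called at a Benjamini-Hochberg adjusted p below 0.05 with a log2 fold change over 1 or under -1.

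Named contigs were the 10 largest rises and falls, every called contig on a gene list, each list's extremes, the 5 with the largest spread and all boCYP sequences. Members and lists were chosen with earlier results of these data known. The fit was tested on simulated data. The number of arrays limits the precision. Arrays are taken as independent, and p-values measure the spread between them. Alternatives covered the background correction, normalization, probe summary, outlier spots, dim contigs, test, arrays in the fit, replicate block, slide row and each array left out. The gene table of the genome assembly was not used here, and contig coordinates are not given.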

Additional observations from a re-analysis of the deposited data

Results flagged for a closer look

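In 10 of 130 sets of 4 arrays (named contigs and list medians), one array lay apart from the others by Dixon's ratio, the gap to the nearest value over the whole range, above the critical value for groups of 4. Chance alone sets apart about 1 in 20 independent groups, but these sets overlap, so the count cannot be held against that rate. The median of the list with ribosomal RNA repeats the values of contig07171, and contig09291 and rc_contig09291 are strands of the same contig. Replicate 1 was apart for contig07171 (0.955, at 2.60), rc_contig04633 (0.905, at 2.41), contig04859, a rhodopsin (0.861, at 0.02), the median of the list with ribosomal RNA (0.955) and the median of the photoreceptor markers (0.871). Replicate 2 was apart for contig04596 (0.862, at 2.96), contig09291 (0.844, at 1.79) and rc_contig09291 (0.953, at 1.96). Replicate 4 was apart for contig01465, a beta-2 tubulin on the testis list (0.839, at 2.01), and contig07983 (0.932, at -3.23).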

How the results depend on the processing

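The 216 called contigs (158 higher, 58 lower) became 270 (197 and 73) with an offset of 16, 224 (172 and 52) with median centring, 210 (145 and 65) with the median of the probes, 229 (170 and 59) without dim contigs and 180 (124 and 56) with only the 4 arrays. They remained 216 without the Aquantile step and with outlier spots kept. The processed intensities of Feature Extraction gave 827 (527 and 300), among them 205 of the 216, and the log ratios of the value table gave 613 (342 and 271), among them 186. The share of higher calls was 73.2% in the reported fit, 63.7% with processed intensities and 55.8% with the value table. Testing against the threshold itself (limma's treat) left 38 calls (33 and 5), and a term for slide row left 154 (104 and 50). Leaving out each array in turn gave 129 to 235 calls, 87 to 173 higher and 42 to 62 lower, with the fewest without replicate 4 of the diet arrays (129, 87 and 42).

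With the replicate number as a block (replicate block), 120 contigs were called (90 and 30), 113 of them among the 216. Deviations of arrays with the same number from the 2 sets correlated at -0.341, -0.733, -0.155 and 0.448, so the numbers were not taken to pair the arrays. Replicate 1 against diet correlated best with replicate 2 against black olives (0.788), and not every array correlated best with its own number.

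Of the 75 named contigs that were called, 41 kept the call in every setting apart from treat and 34 lost it in at least 1. With only the 4 arrays against diet, it was lost by contig01674, contig01720, contig01887, contig04069, contig04337, contig04378, contig05157, contig06606 and contig08903. Of 34 named contigs that were not called, 7 were called in some setting. No called contig changed sign. The cause of these changes was not tested. Signal limits contigs close to background, and their fold changes can vary with the processing: contig09291 ranged from 1.30 to 4.12 over the 20 alternatives.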
